A study of Mus musculus with 5 samples.

Results

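The genes followed here are 40 listed genes of mitosis, chosen by name as the cyclins, kinases, checkpoint proteins, kinetochore parts, motors and condensins that cells use to divide. Every probe set annotated to one of these symbols alone was taken, in all 5 clones. A probe set was found for 39 of the 40, on 90 probe sets, among 18194 named genes on the array; Ccnb1, which encodes the main mitotic cyclin B, had none in the annotation used. The samples were 5 clonal lines (1D, 11B, 20B, 30 and 42) of progenitor cells grown from the left ventricle of adult mice aged 5 to 6 months of the strain given as C67BL/6. No genetic change and no treatment was named for any of them. The founding cells were pulled out with an antibody to Sca-1, grown through a cardiosphere step, cloned in rings and subcloned by dilution, and are described as c-kit+. Each group is thus 1 clone and 1 array of total RNA, with no replicate, so no difference could be tested and every size below describes these arrays only.

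Mitosis starts when the kinase Cdk1, bound to a cyclin, is switched on by Cdc25 phosphatases. Plk1 and the Aurora kinases then build the spindle, condensin compacts the chromosomes, and the spindle checkpoint holds back Cdc20 until every kinetochore is attached. Many of these genes are transcribed together late in the cell cycle, so that their RNAs are commonly read as a mark of dividing cells. In RNA from a whole culture, fewer dividing cells and less of these RNAs per cell cannot be told apart.

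The deposited value is a ratio for each probe set, and its size carries differences between clones but no expression level. The median of the 5 arrays was exactly 1 for 18926 of the 45101 probe sets, or 42.0%, and below 1 for the rest. A gene was followed where it had a probe set with a median of exactly 1, and its value is the mean log2 ratio of those probe sets. Of the 39 genes, 33 could be followed, or 84.6%, against 58.1% of all named genes. The other 6 were Cdc25b, Cenpa, Nuf2, Spc25, Cenpf and Anln. A deviation is the log2 value of a gene in a clone minus the median of the other 4 clones.

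The spread behind these values was read from arrays rather than from cultures. The 18 hybridization control probe sets, which carry array error only, had a standard deviation of 0.08 log2 units. Over 8307 pairs of probe sets for the same gene, the spread of a single probe set was 0.32 log2 units, and over the 21 such pairs within the mitosis genes it was 0.32 as well. Ratios of clones to each other that recur unchanged on many probe sets were a further limit. The row of ratios 1.000, 0.998, 1.003, 0.989 and 1.004 alone stood on 356 probe sets. Clones matching it within 0.12% are called here on a shared level, so how close they lie measures nothing. For 6 of the 33 genes every followed probe set had at least 3 clones on that level, and these genes count as not resolved: Bub3, Kif23, Aurkb, Mad2l1, Kif11 and Top2a.

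The labels call the cells c-kit+ progenitors. Kit, which encodes c-kit, was 0.24 log2 units above the other clones in clone 20B, where clones 1D, 11B and 30 were on the shared level and clone 42 stood at a ratio of just under 1. Pou5f1, which encodes the stem cell factor Oct-4, never exceeded a ratio of 0.58, and Ly6a, which encodes Sca-1, had no probe set of its own. None of the 4 endothelial markers and 1 of the 5 cardiomyocyte markers, Myh6, could be followed. A ratio below 1 does not show that a gene is silent, so the label could be neither borne out nor refuted from these values.

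**Figure D1:**
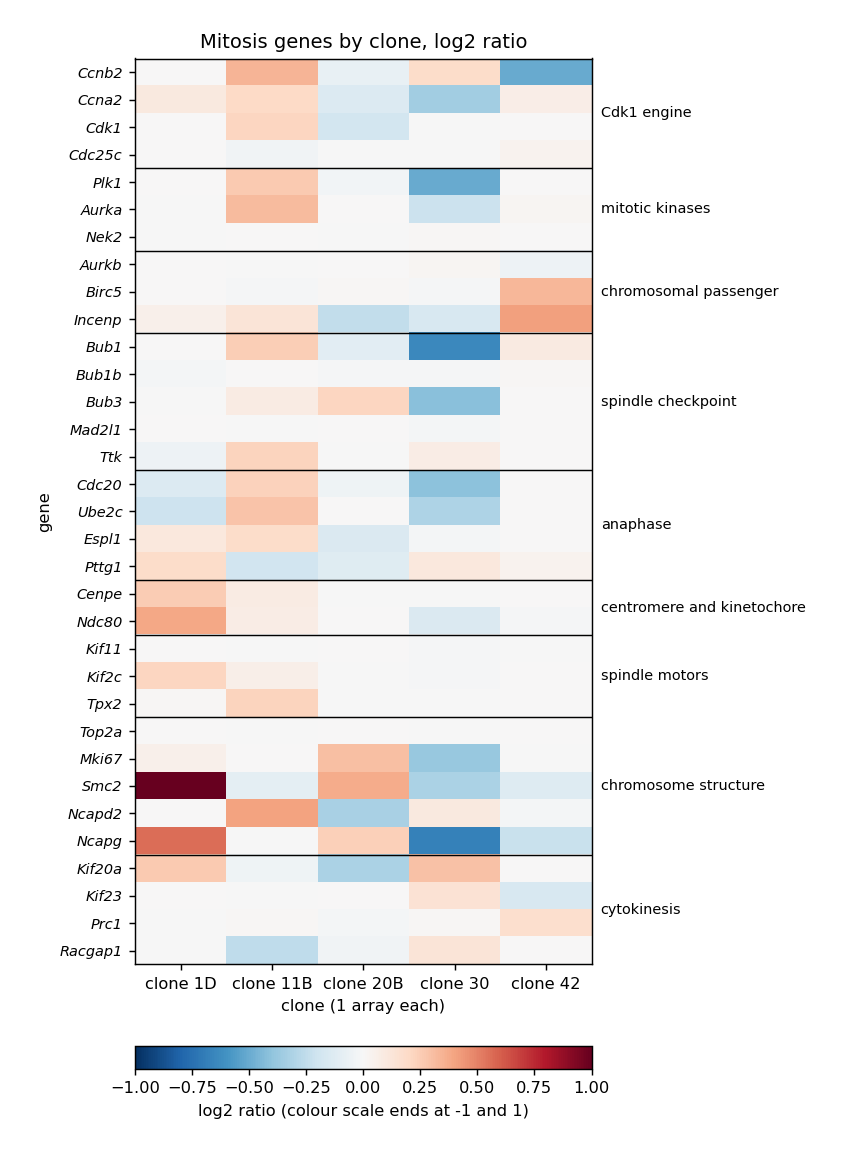
Log2 ratio of each of the 33 mitosis genes that could be followed (rows, grouped by role) in each of the 5 clones (columns, 1 array each). Red is above and blue below the gene's divisor, with the colour scale ending 1 log2 unit either way. Smc2 and Ncapg are highest in clone 1D, the deepest blue cells of Bub1, Plk1 and Cdc20 lie in clone 30, and Mad2l1, Kif11, Nek2 and Top2a show almost no colour.

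Few mitosis genes differed by 2-fold between clones, as few of all genes did, and more differed by smaller amounts. The median range, from the lowest to the highest clone, was 0.38 log2 units over the 33 genes and 0.29 over all 10577 genes followed. Over resolved genes alone, a subset defined above by the shared level, the medians were 0.53 and 0.40. Only Smc2 and Ncapg, both parts of condensin, ranged over 1 log2 unit (2-fold) or more, which is 2 of 33 genes against 10.4% of all genes. A range of 0.5 log2 units or more was reached by 15 of the 33, against 32.1% of all genes. Over resolved genes alone it was reached by 14 of 27, against 41.3%, and 1 log2 unit by 2 of 27, against 13.9%. No mitosis gene lay 1 log2 unit or more above all 4 other clones, where 1.13% of all genes did, or below all 4, where 1.09% did. With clone 1D left out no gene ranged over 1 log2 unit, with clone 30 left out 1 did, and with clone 20B left out 1 gene, Smc2, lay past all other clones.

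Clone 11B and clone 30 held the most small deviations, in opposite directions. These were counted over the 27 genes with a resolved probe set, at a threshold of 0.2 log2 units (1.15-fold) that was chosen after the values were seen and is below the spread of a single probe set. In clone 11B 11 of the 27 lay above the other clones, against 15.3% of the 7636 genes resolved in the same way. A gene is resolved where clones leave the shared level, so these background shares run above those over all genes followed. These were Ccnb2, Ccna2, Cdk1, Plk1, Aurka, Bub1, Ttk, Cdc20, Ube2c, Tpx2 and Ncapd2, and no gene was added when all 33 were counted. With every probe set averaged, including those with a median below 1, the count was 7 of 39 in clone 11B and 8 of 39 below in clone 30. The share of all genes was not computed in that setting, so these counts have no background beside them. Among the 27 resolved genes Pttg1, Smc2 and Racgap1 lay as far below in clone 11B, against 15.0%. In clone 30 the picture turned round, with 10 of the 27 below the other clones, against 18.7%, and Ccnb2 and Kif20a above, against 16.1%. The 10 were Ccna2, Plk1, Aurka, Incenp, Bub1, Cdc20, Ube2c, Mki67, Smc2 and Ncapg, and Bub3 made 11 of all 33. Each deviation is taken from the other 4 clones, so the values for clones 11B and 30 share the remaining 3 arrays and each enters the other.

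The remaining clones held fewer such genes, though clone 1D was no less one-sided. In clone 1D 7 genes lay at least 0.2 above, against 17.0%: Pttg1, Cenpe, Ndc80, Kif2c, Smc2, Ncapg and Kif20a. Ube2c alone lay as far below, against 10.5%. In clone 20B Mki67, Smc2 and Ncapg lay above, against 13.9%, and Ccna2, Incenp, Ncapd2 and Kif20a below, against 9.99%. In clone 42 Birc5 and Incenp lay above, against 18.4%, and Ccnb2, Smc2 and Ncapg below, against 12.8%. The median deviation over the 33 genes was 0.00 in clone 1D, 0.06 in clone 11B, -0.01 in clone 20B, -0.02 in clone 30 and 0.00 in clone 42, so that in every clone the middle gene of the set stayed near the others. Over all genes the same medians lay between -0.01 and 0.00.

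**Figure D2:**
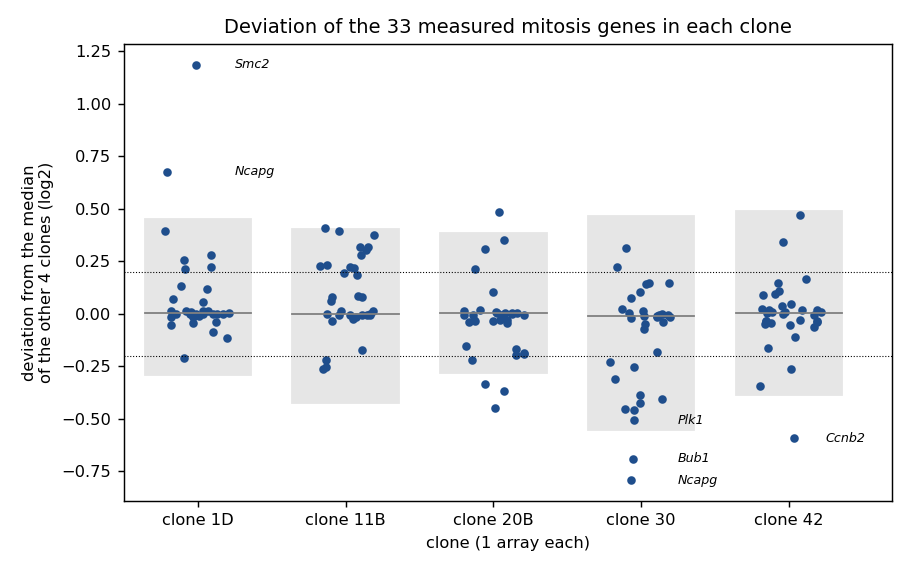
Deviation of each of the 33 mitosis genes (points) from the median of the other 4 clones, in log2 units, for each clone (1 array each). Grey boxes span percentiles 5 to 95 of all 10577 genes with their median as a line, and dotted lines mark 0.2 log2 units either way. Smc2 at 1.18 and Ncapg at 0.68 stand above the box in clone 1D, Bub1 at -0.69 and Ncapg at -0.79 below it in clone 30, and Ccnb2 at -0.59 below it in clone 42.

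Clones 11B and 30 also had the lowest 5′ to 3′ ratios of control transcripts, a sign of RNA quality. The 5′ to 3′ ratio of the Actb control, set to 1 in clone 20B, was 1.08 in clone 1D, 0.597 in clone 11B, 0.743 in clone 30 and 1.08 in clone 42. For the Gapdh control it was 1.12 in clone 1D, 0.893 in clone 11B, 0.966 in clone 30 and 1.05 in clone 42. Both controls were thus lowest in clone 11B and next lowest in clone 30, while Ccna2, Plk1, Aurka, Bub1, Cdc20 and Ube2c lay higher in the one and lower in the other. Other genes did not: Ccnb2 lay above in both (0.37 and 0.22), Smc2 below in both (-0.22 and -0.45), and Pttg1 and Racgap1 below in clone 11B but not in clone 30. By probe set, Ccna2 deviated in clone 11B by 0.40 and 0.10, and Racgap1 by -0.53 and 0.01. The part of RNA quality in these results was not tested. Markers of other cells differed between clones as well, not in clone 30 alone. Of the smooth muscle list, 3 of 4 genes could be followed, with deviations in clone 30 between 0.01 and 1.83, the highest for Tagln, and in clone 11B between -0.01 and 0.60. Of the fibroblast list, 2 of 5 could be followed, Col1a1 at 0.42 and Pdgfra at 0.65 in clone 30. In clone 11B they stood at -0.26 and 0.11, in clone 1D at 0.13 and -0.78, in clone 20B at 0.13 and -0.75, and in clone 42 at -2.17 and 0.99. Their part in the mitosis values was not tested either.

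Promoter windows of 6 genes are shown because these genes carry the differences described next: Plk1, Bub1, Cdc20 and Ube2c between clones 11B and 30, and Smc2 and Ncapg in clone 1D. Each window runs from 250 bases before the annotated start to 50 after it, 5′ to 3′ on the gene's strand, from RefSeq on build GRCm38.p6; the build behind the array annotation is not given in the sources used here. Plk1 lies at chr7:122159185-122159484 on the plus strand, Bub1 at chr2:127831810-127832109 on the minus strand, Cdc20 at chr4:118437294-118437593 on the minus strand, Ube2c at chr2:164769679-164769978 on the plus strand, Smc2 at chr4:52438971-52439270 on the plus strand and Ncapg at chr5:45669675-45669974 on the plus strand. Capitals mark matches, on either strand, to the CCAAT box, to the cell cycle homology region (TTTGAA or TTCGAA) and to the E2F motifs TTTCCCGC, TTTGGCGC and TTTCGCGC.
Plk1: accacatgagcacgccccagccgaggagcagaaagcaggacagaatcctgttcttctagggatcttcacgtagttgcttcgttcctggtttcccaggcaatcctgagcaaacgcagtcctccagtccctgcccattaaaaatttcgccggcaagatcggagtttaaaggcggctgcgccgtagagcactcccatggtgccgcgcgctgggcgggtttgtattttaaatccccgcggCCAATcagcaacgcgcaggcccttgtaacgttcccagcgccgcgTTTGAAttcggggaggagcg
Bub1: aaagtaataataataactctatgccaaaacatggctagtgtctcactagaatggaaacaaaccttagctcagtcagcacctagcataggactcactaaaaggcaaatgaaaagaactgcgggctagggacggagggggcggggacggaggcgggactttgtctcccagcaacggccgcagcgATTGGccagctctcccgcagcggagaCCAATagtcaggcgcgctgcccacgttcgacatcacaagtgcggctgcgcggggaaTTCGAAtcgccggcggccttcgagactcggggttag
Cdc20: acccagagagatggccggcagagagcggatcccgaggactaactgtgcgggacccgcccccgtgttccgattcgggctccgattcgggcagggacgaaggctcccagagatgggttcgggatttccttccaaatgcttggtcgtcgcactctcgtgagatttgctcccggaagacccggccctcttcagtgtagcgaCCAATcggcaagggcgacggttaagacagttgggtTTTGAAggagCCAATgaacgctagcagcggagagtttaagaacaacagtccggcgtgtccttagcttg
Ube2c: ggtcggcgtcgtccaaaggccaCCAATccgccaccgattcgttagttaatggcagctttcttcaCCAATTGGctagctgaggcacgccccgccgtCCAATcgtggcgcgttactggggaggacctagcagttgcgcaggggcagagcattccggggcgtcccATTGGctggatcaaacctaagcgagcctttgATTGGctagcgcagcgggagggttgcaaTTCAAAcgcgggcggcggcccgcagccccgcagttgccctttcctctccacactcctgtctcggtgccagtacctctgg
Smc2: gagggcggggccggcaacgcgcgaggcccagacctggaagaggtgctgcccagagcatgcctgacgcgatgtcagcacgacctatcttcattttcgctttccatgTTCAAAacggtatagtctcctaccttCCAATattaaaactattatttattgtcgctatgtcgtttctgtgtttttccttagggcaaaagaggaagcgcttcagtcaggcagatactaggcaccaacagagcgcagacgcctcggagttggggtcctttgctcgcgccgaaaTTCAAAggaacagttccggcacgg
Ncapg: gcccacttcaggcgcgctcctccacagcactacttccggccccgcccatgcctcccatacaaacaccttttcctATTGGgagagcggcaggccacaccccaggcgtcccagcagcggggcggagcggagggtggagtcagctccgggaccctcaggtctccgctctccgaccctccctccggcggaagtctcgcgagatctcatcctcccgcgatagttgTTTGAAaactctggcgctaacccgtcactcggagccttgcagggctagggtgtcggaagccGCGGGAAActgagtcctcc
The CCAAT box is bound by the factor NF-Y and the homology region by the complex that holds cell cycle genes silent in resting cells. In the Ube2c window a pair of CCAAT matches on opposite strands overlap. All 6 windows held at least 1 match to each, and Ncapg also held an E2F match. Of the 40 genes, 34 had a window in the table, 36 windows in all. A CCAAT box stood in 29 of the 36, or 80.6%, against 37.4% of all 32851 windows of that length. A homology region stood in 29, or 80.6%, against 19.2%, and both together in 26, or 72.2%, against 7.52%. E2F motifs stood in 3, or 8.33%, against 1.84%. The motif counts describe letters only.

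**Figure D3:**
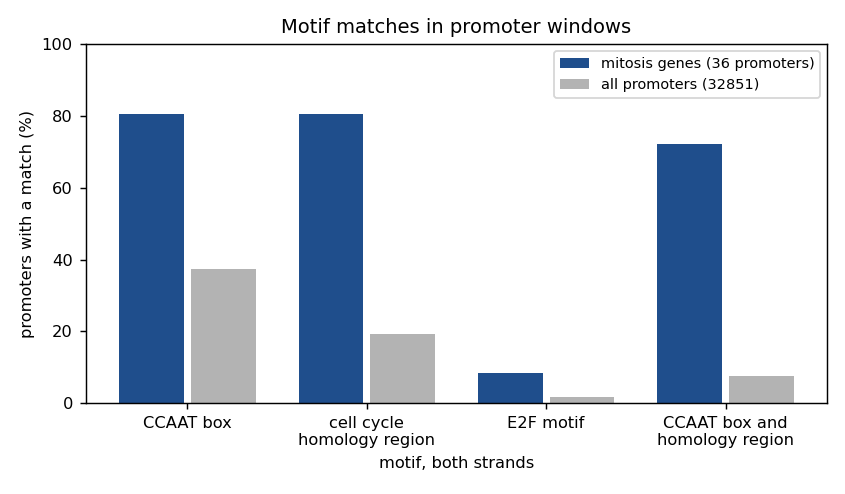
Share of promoter windows, in percent, that hold a match to each motif on either strand, for 36 windows of the mitosis genes (blue) and all 32851 windows (grey). CCAAT box and homology region together stand in 72.2% of the former and 7.52% of the latter.

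Among the genes that start mitosis, the cyclins differed more than Cdk1. Ccnb2, which encodes cyclin B2, had ratios of 1.000 in clone 1D, 1.263 in 11B, 0.950 in 20B, 1.136 in 30 and 0.707 in 42. It was highest in clone 11B and lowest in clone 42, 1.79-fold apart, and its deviation of -0.59 in clone 42 was the only one of 33 genes past 0.5 below there, against 3.34% of all genes. Ccna2, which encodes cyclin A2 and acts from DNA replication into early mitosis, had 2 probe sets. Probe set 1417911_at read 1.143 in clone 1D, 1.000 in 11B, 0.825 in 20B, 0.648 in 30 and 1.062 in 42, and probe set 1417910_at read 0.997, 1.313, 1.000, 0.955 and 1.033 in the same order. Both were lowest in clone 30, but only the latter was highest in clone 11B, so the position of clone 11B rests on 1 of the 2. Cdk1, the kinase itself, ranged over 0.40 log2 units, from 0.880 in clone 20B to 1.160 in clone 11B. Cdc25c, a phosphatase that activates Cdk1, ranged over 0.06. Cdc25b, another such phosphatase, had only a probe set below 1, at 0.657 in clone 42 and between 0.568 and 0.574 in the other clones.

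Plk1 and Aurka, kinases of spindle assembly, were both highest in clone 11B and lowest in clone 30. Plk1 had ratios of 1.000 in clone 1D, 1.201 in 11B, 0.982 in 20B, 0.704 in 30 and 1.002 in 42. Clones 1D, 20B and 42 lay together, with clone 11B above and clone 30 below them, 1.71-fold apart. Aurka, the Aurora kinase of the centrosomes, read 0.997 in clone 1D, 1.243 in 11B, 1.000 in 20B, 0.860 in 30 and 1.014 in 42. Clones 11B and 30 stood 1.45-fold apart, with clones 1D and 20B on the shared level. Its other probe set stayed between 0.660 and 0.667. Nek2, a kinase that helps separate the centrosomes, had 2 followed probe sets that disagreed on clone 42, lowest at 0.946 on one and highest at 1.061 on the other, so that their mean ranged over 0.01 log2 units.

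The chromosomal passenger complex, which corrects wrong attachments through the kinase Aurkb, had no common direction. Birc5, which encodes survivin, read 1.000 in clone 1D, 0.994 in 11B, 1.007 in 20B, 0.993 in 30 and 1.262 in 42, a deviation of 0.34 in clone 42 alone. Incenp, the scaffold of the complex, read 1.000, 1.199, 0.727, 0.805 and 1.694 in the same order on probe set 1423092_at. On probe set 1439252_at it read 1.077, 1.000, 0.981, 0.991 and 1.046. Clone 42 was thus high on 1 probe set and near the others on the next, and the deviation of Incenp there was 0.47 as a mean and 0.92 on the first alone. Its further probe sets, with medians below 1, were flat, ranging over 0.01 to 0.02 log2 units. With them included the deviation of Incenp in clone 42 was 0.19. Aurkb itself was on the shared level in clones 1D, 11B and 20B and was lowest in clone 42, at 0.965.

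Of the spindle checkpoint genes, Bub1 and Bub3 were lowest in clone 30 and Ttk was highest in clone 11B. Bub1, a kinase that recruits checkpoint proteins to kinetochores, had ratios of 1.000 in clone 1D, 1.189 in 11B, 0.929 in 20B, 0.640 in 30 and 1.065 in 42. Clone 30 stood apart below, 1.86-fold under clone 11B, with a deviation of -0.69. Its other probe set, below 1 throughout, stayed between 0.724 and 0.738, and with it included the deviation was -0.34. Bub3, the partner of Bub1, read 1.000, 0.998, 1.348, 0.570 and 1.004 on probe set 1459104_at, which puts clone 20B highest and clone 30 lowest with the rest on the shared level. On probe set 1416815_s_at only clone 11B left that level, at 1.121. Ttk, the kinase known as Mps1, ranged over 0.28 with clone 11B highest at 1.169, which puts it 0.23 log2 units above the other clones there. Bub1b and Mad2l1, which hold back Cdc20, each ranged over 0.02, but all 5 clones of Mad2l1 were on the shared level.

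Cdc20 and Ube2c, which turn on the anaphase-promoting complex and feed it ubiquitin, were highest in clone 11B and lowest in clone 30, as Plk1 was. Cdc20 read 1.000 in clone 1D, 1.088 in 11B, 0.941 in 20B, 0.662 in 30 and 1.009 in 42 on probe set 1416664_at. On probe set 1439394_x_at it read 0.831, 1.264, 1.000, 0.860 and 1.001. Clone 11B was highest on both, clone 30 lowest on the former and clone 1D on the latter. A further probe set with a median below 1 was also highest in clone 11B, at 0.821, but had clone 30 next, at 0.762. The deviation of Cdc20 in clone 30 was -0.39 as reported and -0.25 with that probe set included. Ube2c read 0.864 in clone 1D, 1.221 in 11B, 1.000 in 20B, 0.808 in 30 and 1.001 in 42, again highest in clone 11B and lowest in clone 30, 1.51-fold apart. Espl1, the protease separase, ranged over 0.33 with clone 11B highest at 1.136. Pttg1, the securin that keeps separase inactive, went the other way in clone 11B. Its 3 probe sets read 0.995, 0.785 and 0.855 there, and 1.391, 1.011 and 1.035 in clone 1D.

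The kinetochore genes were the least complete group, with 2 of 6 followed. Ndc80, which binds microtubules, read 1.308 in clone 1D, 1.054 in 11B, 1.000 in 20B, 0.905 in 30 and 0.993 in 42. Clone 1D was highest and clone 30 lowest, 1.45-fold apart. Cenpe, a kinetochore motor, was also highest in clone 1D, at 1.195, and ranged over 0.26. The partners of Ndc80, Nuf2 and Spc25, had only probe sets with medians below 1. Nuf2 stayed between 0.781 and 0.787, while both Spc25 probe sets were highest in clone 11B, at 0.852 and 1.040. Cenpa, the histone that marks centromeres, was highest in clone 30 on 1 probe set, at 1.188 against 0.783 in clone 20B, and flat on the other 2. Cenpf had no ratio above 0.752.

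The spindle motors and their partner Tpx2 differed little between clones. Kif11, the motor that pushes the poles apart, was on the shared level in at least 4 clones on both probe sets and ranged over 0.02. Kif2c, which takes microtubules apart, was highest in clone 1D at 1.158, and Tpx2, which activates Aurka, in clone 11B at 1.166. A Tpx2 probe set with a median below 1 was highest in clone 11B as well, at 0.808, with clone 30 next at 0.752 and the others between 0.540 and 0.586.

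The largest differences of the whole set lay in condensin, the ring complex that compacts chromosomes. Smc2, its core subunit, read 3.941 in clone 1D, 1.000 in 11B, 1.621 in 20B, 0.875 in 30 and 0.865 in 42 on probe set 1429658_a_at. Probe set 1429659_at read 2.332, 0.762, 1.450, 0.710 and 1.000, and probe set 1429660_s_at read 2.125, 1.000, 1.189, 0.674 and 0.811. All 3 placed clone 1D highest and clone 20B next, with spans of 4.56-fold, 3.28-fold and 3.15-fold. The remaining followed probe set, 1458479_at, lay between 0.996 and 1.005 in every clone, and another stayed below 1 with its highest ratio, 0.707, in clone 42. As the mean of the 4 followed probe sets, Smc2 in clone 1D was 2.27-fold above the median of the other 4 clones, the only mitosis gene past 2-fold by that measure in any clone. That is 1 of 33 against 0.643% of all genes. Past the same 2-fold, all genes gave 0.284% below in clone 1D, 0.577% above and 0.747% below in clone 11B, 0.331% and 0.132% in clone 20B, 0.983% and 1.41% in clone 30, and 0.681% and 0.889% in clone 42, and the mitosis genes gave none. Its deviation in clone 1D was 1.18 as reported, 1.58 with the flat probe set left out, and 0.93 with every probe set averaged.

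Ncapg, a regulatory subunit of condensin I, shared the order of Smc2 on 1 of its 2 probe sets. Probe set 1429172_a_at read 2.178 in clone 1D, 1.000 in 11B, 1.382 in 20B, 0.677 in 30 and 0.728 in 42. Probe set 1429171_a_at read 1.000, 0.998, 1.003, 0.580 and 1.004, so that all clones but 30 were on the shared level. Clone 30 was lowest on both, and its deviation of -0.79 was the largest downward of the set. At 0.5 log2 units, Plk1, Bub1 and Ncapg lay below the other clones in clone 30, 3 of 33 against 5.68% of all genes, and Smc2 and Ncapg lay above them in clone 1D, 2 of 33 against 4.13%. Smc4, the partner of Smc2 in the ring, is not among the 40 genes and was looked up after these values were seen. It read 2.359 and 1.683 in clone 1D on 2 of its 3 probe sets, 0.657 and 0.872 in clone 30, and was level on the third. Not every subunit followed: Ncapd2, also of condensin I, read 1.000 in clone 1D, 1.320 in 11B, 0.800 in 20B, 1.069 in 30 and 0.988 in 42, with clone 11B highest and clone 20B lowest. Its other probe set, below 1 throughout, did not repeat that order, at 0.876 in clone 11B, 0.894 in 20B and 0.918 in 42. With it included the deviation of Ncapd2 in clone 11B was 0.19 instead of 0.41. The condensin II subunits Ncaph2 and Ncapd3, read for the same reason as Smc4, were not high in clone 1D either. The 3 followed probe sets of Ncaph2 read 1.002, 0.718 and 0.977 there, and that of Ncapd3 read 1.005. Ncaph, of condensin I, and Ncapg2, of condensin II, had only probe sets with medians below 1. Their highest ratios, 0.846 for Ncaph and 0.917 for Ncapg2, were in clone 11B.

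**Figure D4:**
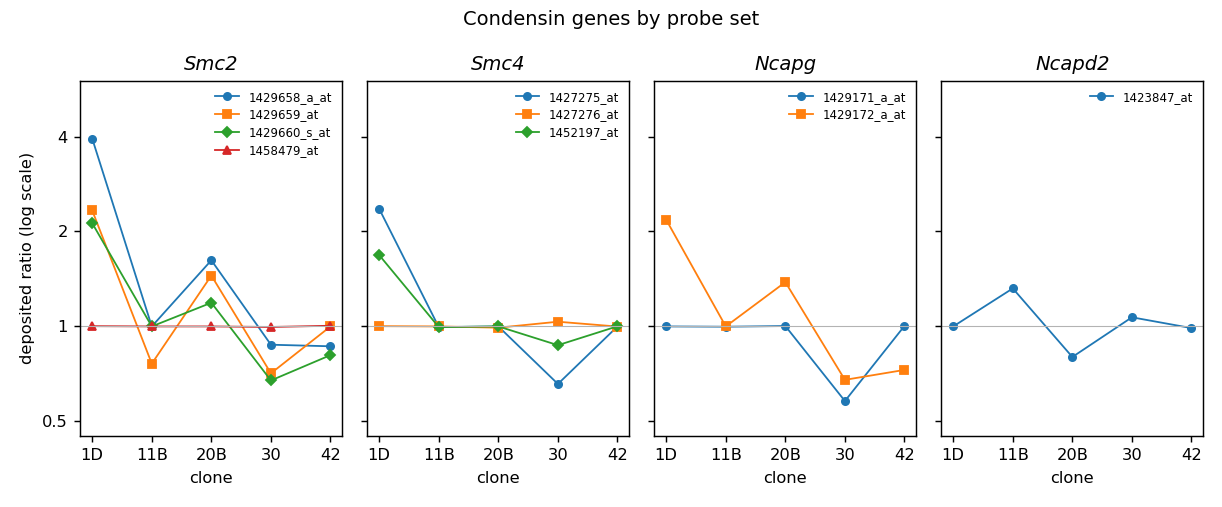
Deposited ratio (log axis) of each followed probe set of the condensin genes Smc2, Smc4, Ncapg and Ncapd2 in the 5 clones (1 array each; lines join the values of 1 probe set). Clone 1D is highest on 3 of 4 Smc2 probe sets, at 2.125 to 3.941, on 2 of 3 Smc4 probe sets and on 1 of 2 Ncapg probe sets, while Ncapd2 peaks in clone 11B at 1.320.

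Of the other chromosome proteins, Mki67, the proliferation antigen that coats mitotic chromosomes, read 1.038 in clone 1D, 1.000 in 11B, 1.235 in 20B, 0.768 in 30 and 0.995 in 42. Clone 20B was highest and clone 30 lowest, 1.61-fold apart, and clone 11B stood with clones 1D and 42. Top2a, which untangles chromosomes, was on the shared level in 4 clones on the probe set followed. Its other 2 probe sets stayed below 1, the highest ratio being 0.962.

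The genes of cytokinesis did not follow the order of Plk1. Kif20a, a motor of the central spindle that Plk1 binds, read 1.197 in clone 1D, 0.972 in 11B, 0.801 in 20B, 1.225 in 30 and 1.000 in 42. It was highest in clone 30, with clone 1D close to it, and lowest in clone 20B. Racgap1, which signals to the contractile ring, was highest in clone 30 on both followed probe sets, at 1.030 on 1451358_a_at and 1.165 on 1421546_a_at. Clone 11B was lowest on the former, at 0.699, but read 1.008 on the latter, so its low position rests on 1 of the 2. Kif23, its partner in centralspindlin, ranged over 0.30 with clone 30 highest. That place rests on probe set 1455990_at, at 1.229, while on 1453748_a_at clone 30 was on the shared level, at 0.991. Prc1, which bundles midzone microtubules, ranged over 0.19 with clone 42 highest. The ring protein Anln stayed between 0.533 and 0.671 on both probe sets.

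Set directly against each other, clones 11B and 30 held the most mitosis genes on one side of any of the 10 pairs. At 0.5 log2 units (1.41-fold), 7 of 33 genes were higher in clone 11B, Ccna2, Plk1, Aurka, Bub1, Cdc20, Ube2c and Ncapg, and none was higher in clone 30. Over all genes the shares were 7.11% and 6.40%. Clone 1D was higher than clone 30 for 5 genes, Plk1, Bub1, Ndc80, Smc2 and Ncapg, and lower for none, against 8.64% and 5.76%. Clone 20B was higher than clone 30 for 5 genes and lower for 1, Kif20a, against 7.33% and 5.59%. Clone 42 was higher than clone 30 for Plk1, Incenp and Bub1 and lower for Ccnb2, against 7.67% and 5.54%. These 4 comparisons share the array of clone 30. Among the 15 genes that ranged over 0.5 log2 units or more, clone 30 was lowest for 11, against 29.7% of all genes with such a range, and clone 11B highest for 8, against 18.4%. At 1 log2 unit the pairs of clone 1D with clones 11B, 30 and 42 held Smc2, against 1.69%, 2.30% and 1.20% of all genes, and the pair with clone 30 also held Ncapg.

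**Figure D5:**
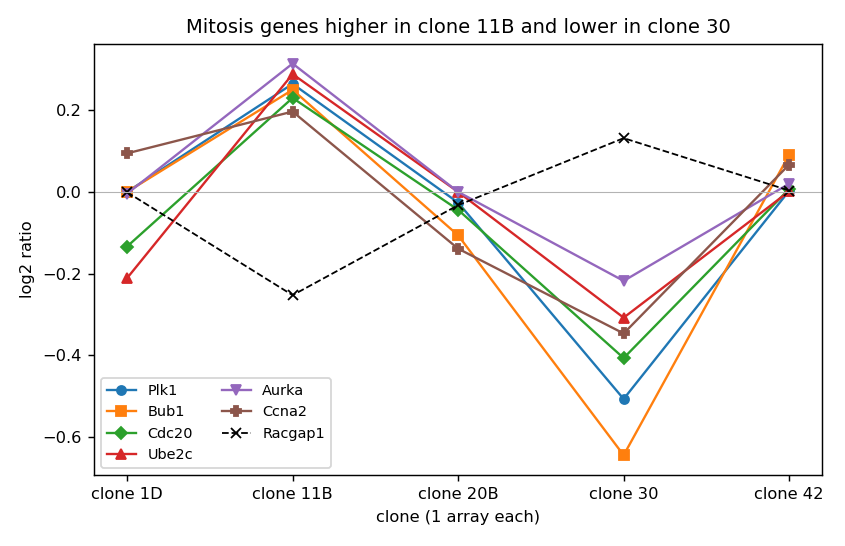
Log2 ratio in the 5 clones (1 array each; lines join the values of 1 gene) of 6 genes chosen after their values were seen, Plk1, Bub1, Cdc20, Ube2c, Aurka and Ccna2, with Racgap1 dashed. The 6 lie between 0.20 and 0.31 in clone 11B and between -0.64 and -0.22 in clone 30, while Racgap1 lies at -0.25 in clone 11B and 0.13 in clone 30. The low value of Racgap1 in clone 11B rests on 1 of its 2 followed probe sets. Ccna2 was highest in clone 11B on 1 of its 2 probe sets only.

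The further mitosis genes stood near the background in clone 11B. Of 64 further mitosis genes 34 were resolved, and at 0.2 log2 units 5 of them (14.7%) lay above the other clones in clone 11B and 4 below, beside 15.3% and 15.0% of all resolved genes. In clone 30 8 (23.5%) lay below and 3 above, beside 18.7% and 16.1%. The widest of this list was Aspm, which positions the spindle, with log2 values of 0.00 in clone 1D, 0.42 in 11B, 0.01 in 20B, -1.55 in 30 and -1.28 in 42, so that clones 30 and 42 were both far below the rest. Fzr1, which replaces Cdc20 late in mitosis, was lowest in clone 11B with a deviation of -0.91. Smc1a, a core subunit of cohesin, was highest in clone 1D with a deviation of 0.83, while Smc3, of the same complex, deviated by 0.00 there.

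The genes of DNA replication lay on both sides in clone 11B. Of 34 resolved, 9 (26.5%) lay at least 0.2 log2 units above and 8 (23.5%) below there, beside 15.3% and 15.0% of all resolved genes. In clone 30 7 (20.6%) lay above and 10 (29.4%) below, beside 16.1% and 18.7%. Rpa2, which binds single-stranded DNA, had the widest range, 2.07 log2 units, with -1.42 in clone 11B and 0.65 in clone 20B. Rfc4, of the clamp loader, was low in clones 30 and 42, at -1.42 and -1.25, and Prim1, of the primase, was highest in clone 30 at 0.69. Of 4 resolved genes of G1 phase, 3 lay below in clone 30, beside 18.7% of all resolved genes. In clone 1D 2 lay below, beside 10.5%, and in clone 20B 2 lay above, beside 13.9%, with none the other way in any of these clones. Ccnd1, which encodes cyclin D1, deviated by -0.47 in clone 30 and by 0.53 in clone 20B. Rbl1, a pocket protein related to Rb, ranged over 0.72 and Cdk4, the kinase of cyclin D1, over 0.61. Of 6 resolved genes for brakes on the cycle, 3 lay below the other clones in clone 11B and 1 above, beside 15.0% and 15.3%. In clone 42 3 lay above and 1 below, beside 18.4% and 12.8%. Cdkn1a, which encodes p21, deviated by -1.14 in clone 11B and by 0.57 in clone 42. Btg2, an antiproliferative gene, was highest in clone 20B, with a deviation of 1.33, and Gadd45a, a stress-response gene, in clone 30, with 0.91.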

How the data were processed

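Total RNA from each of the 5 clones was hybridized to 1 Affymetrix array. The submitters' processing notes name RMA and GCRMA, 2 ways of summarising probe signals, and give neither version nor role. The values the authors deposited were read as a linear ratio per probe set, because their median over the arrays was 1 or below 1 and never above; no header states this division, and no level or detection call can be recovered.

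Probe sets were named from the supplied array annotation, which gave 34958 of them 1 symbol, 932 several and 9211 none; those with 1 symbol were used. Values were averaged per gene on the log2 scale over probe sets with a median of exactly 1. Genes that ranged over at least 0.5 log2 units or were among the 12 widest are given in every clone, the rest by range, and up to 3 of the widest genes of each other list are named. The members and lists were chosen with earlier results of these data known. No test was possible with 1 array per clone, so sizes of 1, 0.5 and 0.2 log2 units were set beside the share of all genes past them. Python 3.11.15, numpy 2.4.6, pandas 2.3.3 and matplotlib 3.10.9 were used, and the calculations were tested on simulated data. The alternatives were every probe set, the probe set of largest range, other filters, another threshold and each clone left out. The number of arrays limits the precision.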

Additional observations from a re-analysis of the deposited data

How the results depend on the processing

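No paired analysis was possible because each clone had 1 array and no result comes from a test. Of 181 recomputed summary values over the set, 167 kept within set limits, as did 172 of 179 values for single genes. No single-gene value past 0.5 log2 units changed direction. The limits included 0.08 log2 units for a median deviation, 0.32 for a single gene and a fixed fold for a count. The first exceeds every median deviation reported, so keeping within it says little. In clone 11B that median was 0.06 as reported and 0.01 with the probe set of largest range. It was 0.13 there without probe sets of recurring ratios. The median deviation in clone 42, 0.00 as reported, changed sign to -0.01 with probe sets that had any clone above 1 added and flat ones dropped, and to -0.00044 under quantile normalization. The number of genes past 1 log2 unit in clone 1D, 1 as reported, was 0 with every probe set averaged and 2 with the probe set of largest range, without probe sets of recurring ratios, or at 0.5 log2 units. At 0.5 log2 units clone 30 had 3 and clone 42 had 1 instead of 0. The number of genes ranging over 1 log2 unit, 2 as reported, was 4 with the probe set of largest range, 15 at 0.5 log2 units, and 0 to 2 with a clone left out, 0 without clone 1D and 1 without clone 30. The number past all other clones, 0 as reported, was 1 with the probe set of largest range and 0 to 1 with a clone left out, 1 without clone 20B. The median deviation in clone 30 was -0.13 without probe sets of recurring ratios, where 22 genes were left. The count above in clone 11B was 7 with every probe set averaged and 10 to 14 with a clone left out; that below in clone 30, 11 as reported, was 8 with every probe set averaged, 10 under quantile normalization and 11 to 12 with a clone left out. Apart from the threshold of 0.5 log2 units, the share of all genes was not computed in these settings, so the counts have no background beside them. The number of genes counted also changed, to 39 with every probe set averaged from 33 as reported. The cause of these shifts was not tested.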

Other observations

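The genes next to Smc2 and Ncapg on the chromosome were read in the same clones, in the order of the RefSeq table. The 5 followed genes on each side of Smc2, on chromosome 4, deviated in clone 1D by -0.12 to 0.21 log2 units, against 1.18 for Smc2 itself. The 5 on each side of Ncapg, on chromosome 5, deviated in clone 1D by -0.77 (Slit2) to 0.25 (Kcnip4), against 0.68 for Ncapg, and in clone 30 by -0.48 (Lcorl) to 0.24 (Ppargc1a), against -0.79. In clone 11B, where Ncapg stood at -0.01, its neighbours Lap3 and Med28 stood at 0.90 and 0.81.

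Hmmr, which encodes a receptor for hyaluronan that also binds spindle microtubules, belongs to the list of further mitosis genes and was picked after its values were seen. Its deviation was 0.67 in clone 1D, -0.40 in 11B, -0.01 in 20B, -0.34 in 30 and 0.36 in 42, high in clone 1D and low in clones 11B and 30.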
